A study of Mus musculus with 5 samples.

Results

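The netrins are secreted guidance proteins of growing axons and migrating neurons, and the set described here comprised 10 genes of the 55421 in the deposited count table. They were taken as a list of names and matched to gene identifiers through the GENCODE M21 annotation of the mouse genome (GRCm38). The list held the ligands Ntn1 and Ntn4, the secreted netrin antagonist Draxin, the DCC family receptors Dcc and Neo1, the receptor Dscam, and the UNC5 receptors Unc5a, Unc5b, Unc5c and Unc5d. The rule itself used no measured value, although the list was drawn up with earlier results of these data known. RNA came from whole cerebella at postnatal day 14. The 3 Yy1 cKO libraries had the genotype Pcp2 Cre/+; Yy1 fx/fx and the 2 control libraries, from littermates, Pcp2 Cre/+; Yy1 fx/+. All animals thus carried the Cre, which the Pcp2 promoter expresses in Purkinje cells, and at least 1 floxed Yy1 allele. The sex was mixed, and the labels give neither the sex nor the animal behind each library, and every p-value therefore reflects the spread among these 5 libraries, which may be partly technical. The comparison bears on how whole-cerebellum transcripts differ once both Yy1 alleles of Purkinje cells can be deleted.

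Netrin-1, the product of Ntn1, attracts axons that carry DCC, and UNC5 receptors, alone or together with DCC, turn the response to repulsion. Neogenin, from Neo1, is the close relative of DCC and also binds repulsive guidance molecules, and DSCAM can act beside DCC. Draxin binds both netrin-1 and DCC and repels axons. In the developing cerebellum these proteins guide granule cell precursors, granule cell axons and projections into the tissue, and mice without Unc5c have granule and Purkinje cells outside the normal cerebellar border (the rostral cerebellar malformation).

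Total counts were 18872728 to 20305705 in the Yy1 cKO libraries and 17424860 to 18007663 in the controls. Yy1 itself, read over the whole transcript and all cell types, averaged 77.0 CPM in Yy1 cKO and 74.1 CPM in controls (log2 fold change 0.05, edgeR adjusted p = 0.61), so it checks the labels little. Library Yy1 cKO 3 stood apart from the other 4 on the second principal component (18.5% of variance). Without it 7 of the 10 genes were again called lower and 1 higher. That fit called 6117 of 20032 genes (3127 lower, 2990 higher), against 4762 of 20388 with all 5 libraries. Defining markers of Purkinje cells (Calb1, Pcp2) and of granule neurons (Gabra6) were present in all 5 libraries.

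Of the 10 genes, 7 were lower and 1 was higher in Yy1 cKO cerebella. Draxin and Dcc fell most, Unc5d, Unc5c, Dscam and Neo1 fell less, Unc5b fell slightly, and Unc5a rose. Neither of the ligands, Ntn1 and Ntn4, passed the test. All 10 genes passed the filter on low counts, with at least 53 counts in every library. The test was the edgeR quasi-likelihood test over 20388 genes, with a Benjamini-Hochberg adjusted p under 0.05 as a call, and it called 23.4% of all genes tested, 12.6% as lower and 10.7% as higher. The median log2 fold change was -0.52 over the 10 genes and -0.00086 over all genes tested. A call with an at least 2-fold change was made for 3 of the 10 genes, against 5.44% of all genes. The Yy1 cKO and control libraries did not overlap in 9 of the 10 genes, 8 of them lower and 1 higher in Yy1 cKO, while 27.0% of all genes were lower and 25.2% higher without overlap. In whole tissue, fewer cells of a type and less RNA per cell cannot be told apart.

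**Figure D1:**
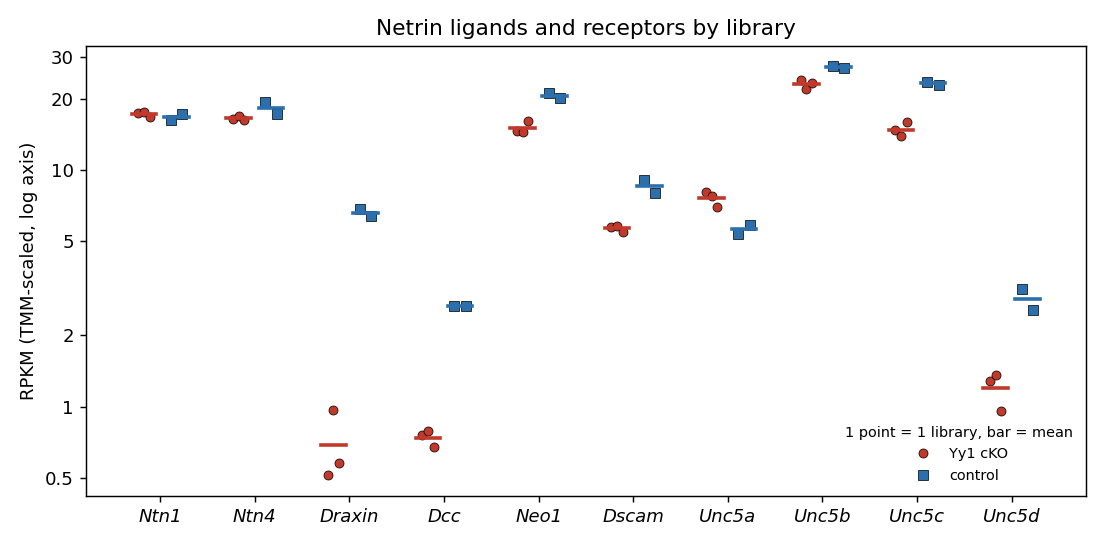
Level of each gene in RPKM (CPM divided by the kilobases of exon, TMM-scaled, log axis) in the 3 Yy1 cKO libraries (circles) and the 2 control libraries (squares), with bars at the group means. Draxin had 0.687 RPKM in Yy1 cKO and 6.61 RPKM in controls on average, whereas the Ntn1 points of the groups overlap.

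Levels were compared between genes per kilobase of annotated exon. In Yy1 cKO the order of mean RPKM was Unc5b (23.1), Ntn1 (17.2), Ntn4 (16.5), Neo1 (15.1), Unc5c (14.8), Unc5a (7.62), Dscam (5.67), Unc5d (1.20), Dcc (0.740) and Draxin (0.687). In controls it was Unc5b (27.3), Unc5c (23.2), Neo1 (20.6), Ntn4 (18.3), Ntn1 (16.8), Dscam (8.56), Draxin (6.61), Unc5a (5.61), Unc5d (2.85) and Dcc (2.67). Neighbours whose libraries overlapped were Ntn1 with Ntn4, Neo1 with Unc5c and Dcc with Draxin in Yy1 cKO, and Ntn4 with Ntn1 and Unc5d with Dcc in controls. Several places depend on the length used. The exons of Unc5c together span 19135 bases and its longest transcript 9646, and per kilobase of the longest transcript Unc5c led in both groups, at 29.4 RPKM in Yy1 cKO and 46.1 RPKM in controls. On that scale Neo1 (17.8 RPKM) stood above Ntn4 (16.97 RPKM) in Yy1 cKO, with overlapping libraries, and Unc5d overlapped Dcc there. In controls Dcc (3.40 RPKM) then stood above Unc5d (2.85 RPKM) with no overlap.

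Transcripts of the netrin ligands did not pass the test. Ntn1 (ENSMUSG00000020902.12, chromosome 11, 68209364 to 68400823, minus strand) had 109, 110 and 105 CPM (counts scaled by library size and TMM factor) in Yy1 cKO libraries, against 102 and 109 CPM in controls. The groups overlapped, and the log2 fold change was 0.04 ± 0.058 (SE, adjusted p = 0.72). Ntn4 (ENSMUSG00000020019.4, chromosome 10, 93640681 to 93747207, plus strand), a netrin of basement membranes that is closer to laminin beta chains, had 61.4, 63.4 and 60.8 CPM in Yy1 cKO and 72.5 and 64.4 CPM in controls. Every Yy1 cKO library lay below both controls, by a small margin, and the gene did not pass (log2 fold change -0.15 ± 0.068, adjusted p = 0.16).

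Draxin (ENSMUSG00000029005.4, chromosome 4, 148098437 to 148130698, minus strand) had the largest change of the set. It had 53, 92 and 56 counts in Yy1 cKO libraries, against 660 and 597 in controls, that is 2.67, 5.04 and 3.01 CPM against 35.5 and 33.3 CPM. The 3 Yy1 cKO libraries were far below both controls, and Yy1 cKO 2 was the highest of them. The log2 fold change was -3.27 ± 0.22 (adjusted p = 8.6e-05), a level 9.65-fold higher in controls, and it was the 78th lowest among the 20388 genes tested. At 53 counts the counting error alone is 13.7%. The ratio of Ntn1 to Draxin RPKM was 33.9, 18.1 and 29.0 in Yy1 cKO and 2.39 and 2.71 in controls.

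The promoters of the gene that fell most and of the one that rose are shown for the letters upstream of their starts. Both are the 200 bases before the RefSeq transcription start (GRCm38.p6), Draxin at chr4:148130699-148130898 on the minus strand and Unc5a at chr13:54949211-54949410 on the plus strand. Capitals mark CAGCTG, an E-box that neuronal basic helix-loop-helix factors can bind and that was chosen after values were seen.
Draxin: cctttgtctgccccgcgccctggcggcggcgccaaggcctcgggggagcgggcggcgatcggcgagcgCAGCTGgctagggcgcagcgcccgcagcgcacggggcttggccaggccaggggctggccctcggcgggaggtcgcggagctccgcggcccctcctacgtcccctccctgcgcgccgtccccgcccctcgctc
Unc5a: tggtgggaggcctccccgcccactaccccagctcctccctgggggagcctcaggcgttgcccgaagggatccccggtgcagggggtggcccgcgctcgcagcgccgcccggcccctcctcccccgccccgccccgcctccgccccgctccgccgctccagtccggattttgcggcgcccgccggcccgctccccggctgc
Windows were at hand for 7 of the 10 genes. CAGCTG occurred in that of Draxin, at position -132 from the start, and not in those of Unc5a, Unc5b, Unc5c, Neo1, Dscam and Ntn4, while 10.9% of 32851 promoter windows of this length hold it. The YY1 motif letters AANATGGCG, searched on both strands of the wider window of 250 bases before and 50 after the start, were in none of the 7 and in 2.38% of all windows. Its shorter form AANATGG, which the longer one contains, was also in none of the 7 and in 16.1% of all windows. GC content of the printed stretch was 80.5% for both genes, against a median of 53.0% over all windows. Over the 7 genes it ran from 68.0% (Dscam) to 82.5% (Neo1), so a high GC content was not particular to Draxin and Unc5a.

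Dcc, the attractive netrin-1 receptor, was the member with the smallest p. Dcc (ENSMUSG00000060534.16, chromosome 18, 71253634 to 72351069, minus strand) had 198, 189 and 166 counts in Yy1 cKO libraries, against 655 and 628 in controls. In CPM these are 9.97, 10.3 and 8.91 against 35.2 and 35.0, so libraries within a group lay close together and the groups far apart. Dcc fell by 1.85 ± 0.10 on the log2 scale (adjusted p = 3.6e-06), or 3.60-fold higher in controls, and 45 of the 20388 genes had a smaller p.

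Neo1 (ENSMUSG00000032340.8, chromosome 9, 58874687 to 59036441, minus strand) had a smaller fall from a higher level. It had 128, 126 and 141 CPM in Yy1 cKO and 184 and 175 CPM in controls. The groups did not overlap, and the log2 fold change was -0.45 ± 0.064 (adjusted p = 9.2e-04). Dcc fell more than Neo1. Dcc thus made up 4.90%, 5.16% and 4.01% of the summed Dcc and Neo1 RPKM in Yy1 cKO, and 11.2% and 11.7% in controls. The ratio of Ntn1 to Dcc RPKM was 23.0, 22.3 and 24.8 in Yy1 cKO and 6.09 and 6.52 in controls.

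Dscam, an immunoglobulin superfamily receptor known for self-avoidance of dendrites as well as for netrin binding, fell in the same range. Dscam (ENSMUSG00000050272.10, chromosome 16, 96590840 to 97170752, minus strand) had 50.3, 51.1 and 48.3 CPM in Yy1 cKO and 80.0 and 70.7 CPM in controls. The Yy1 cKO libraries were all below the lower control. It changed by -0.59 ± 0.070 (log2) (adjusted p = 3.2e-04). A pair of antisense transcripts share 99 and 174 exon bases with it but had 8 and 18 counts over all libraries.

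**Figure D2:**
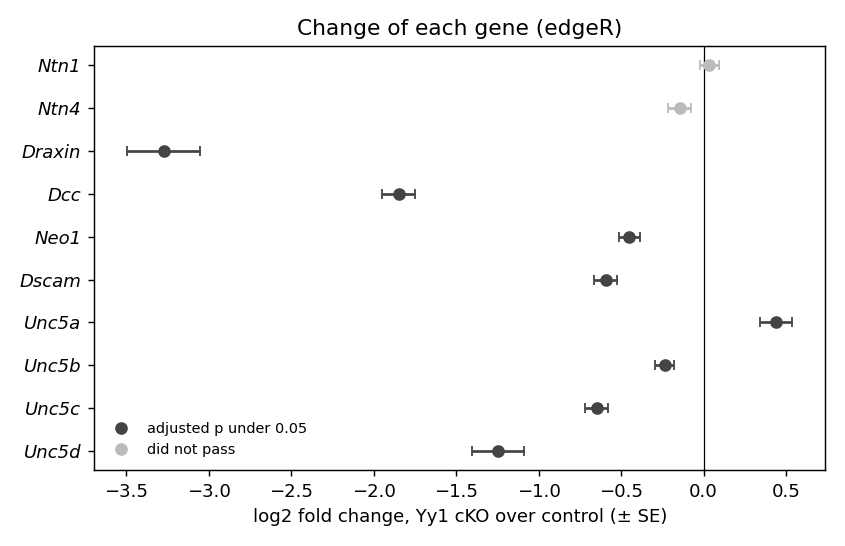
Log2 fold change of each gene, Yy1 cKO over control, with its SE as the bar (edgeR, 3 and 2 libraries); dark points passed an adjusted p of 0.05 and grey points did not. The points run from -3.27 for Draxin to 0.44 for Unc5a, and those of Ntn1 and Ntn4 are grey.

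The UNC5 receptors, which mediate repulsion by netrin-1, did not move together. Unc5c was the most counted of the set. Unc5c (ENSMUSG00000059921.15, chromosome 3, 141465216 to 141834924, plus strand) had 281, 266 and 304 CPM in Yy1 cKO and 452 and 437 CPM in controls. All Yy1 cKO libraries were well below both controls (log2 fold change -0.65 ± 0.068, adjusted p = 1.6e-04).

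Unc5d (ENSMUSG00000063626.6, chromosome 8, 28646717 to 29219636, minus strand), a receptor of migrating cortical neurons that also binds FLRT2, was among the rarest members. It had 236, 230 and 164 counts in Yy1 cKO and 541 and 422 in controls, or 11.9, 12.6 and 8.81 CPM against 29.1 and 23.5 CPM. Libraries within each group varied more here than for the other receptors, but the groups did not overlap. The log2 fold change was -1.25 ± 0.16 (adjusted p = 7.5e-04).

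Unc5b (ENSMUSG00000020099.8, chromosome 10, 60762593 to 60831581, minus strand), also the UNC5 receptor of endothelial tip cells, had 150, 138 and 146 CPM in Yy1 cKO and 172 and 169 CPM in controls. The groups were close but did not overlap, and the log2 fold change of -0.24 ± 0.056 passed (adjusted p = 0.014). The Unc5b call was lost without control 1 (adjusted p = 0.13) and without control 2 (adjusted p = 0.10), within a range of 2.5e-06 to 0.13 over the alternatives.

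Unc5a (ENSMUSG00000025876.15, chromosome 13, 54949411 to 55006018, plus strand) went the other way. It had 669, 594 and 541 counts in Yy1 cKO and 418 and 436 in controls, or 33.7, 32.5 and 29.1 CPM against 22.5 and 24.3 CPM. All Yy1 cKO libraries were above both controls (log2 fold change 0.44 ± 0.097, adjusted p = 0.0094). The Unc5a call was lost without control 1 (log2 fold change 0.38, adjusted p = 0.094), within a range of 1.2e-07 to 0.094 over the alternatives, and its direction held in all of them. Unc5a shares 34 exon bases with Hk3 on the other strand, which had 8 to 19 counts a library.

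As these genes differed in direction and size, the make-up of UNC5 transcripts differed between the groups. The summed UNC5 level was 48.0, 45.2 and 47.2 RPKM in Yy1 cKO and 59.6 and 58.3 RPKM in controls. Unc5a took 16.3% ± 1.3 of it in Yy1 cKO (SD, n = 3) and 9.52% ± 0.69 in controls (SD, n = 2). Unc5c took 31.7% ± 1.7 in Yy1 cKO and 39.4% ± 0.34 in controls, Unc5d 2.58% ± 0.51 and 4.83% ± 0.64, and Unc5b 49.5% ± 0.45 and 46.2% ± 0.30. For each of the 4 shares the groups did not overlap. These shares rest on the union of exons as length. Per kilobase of the longest transcript Unc5c took the largest share, 46.5% ± 2.0 in Yy1 cKO and 55.0% ± 0.36 in controls, and Unc5b 39.0% ± 0.56 in Yy1 cKO and 34.7% ± 0.29 in controls. Unc5a then took 12.6% ± 1.2 in Yy1 cKO and 6.98% ± 0.52 in controls. The exact permutation test, two-sided, on the shares by the union of exons gave p = 0.2 for every one, the smallest it can give with 10 arrangements of 5 libraries, so this permutation test could not pass 0.05 whatever the shares.

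**Figure D3:**
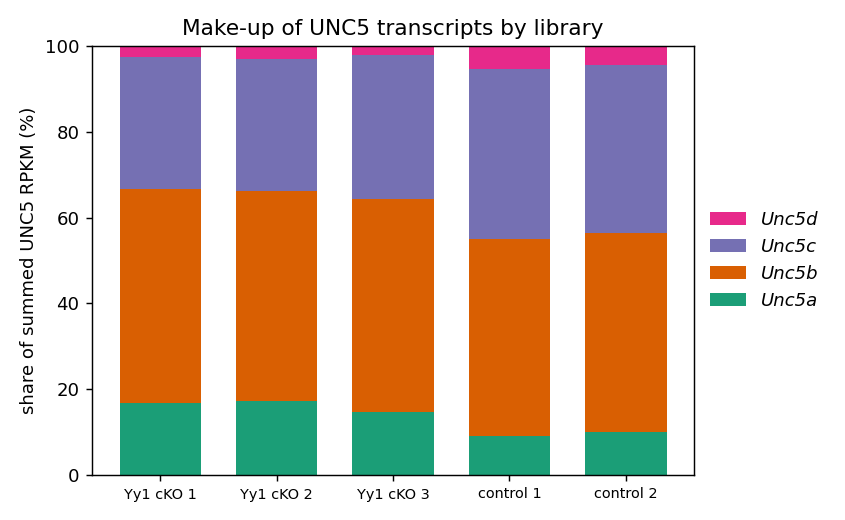
Share of the summed UNC5 RPKM (percent) taken by each UNC5 gene in the 3 Yy1 cKO libraries and the 2 control libraries, 1 bar a library. The Unc5a segment is 14.8% to 17.3% in Yy1 cKO and 9.04% to 10.01% in controls.

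The libraries were depleted of ribosomal RNA and not selected for poly(A), so transcripts annotated within introns were also counted. Such transcripts on the host's strand, with no exon shared, are annotated in Unc5b, Unc5c, Unc5d and Ntn1. They were looked at after the values of the hosts had been seen. Reads counted there cannot be told apart from unspliced RNA of the host. In Unc5d these are Svet1, known as a marker of the embryonic subventricular zone, Gm9911 and Gm45652. Svet1 (chromosome 8, 29108837 to 29112776) had 23, 20 and 13 counts in Yy1 cKO and 92 and 82 in controls, which is a fall by 2.26 ± 0.25 on the log2 scale (adjusted p = 2.3e-04). Gm9911 fell by 2.32 ± 0.30 and Gm45652 fell by 2.48 ± 0.32 on the log2 scale (adjusted p = 5.3e-04 and 5.5e-04). Counts were low in Yy1 cKO, at 15, 10 and 9 for Gm9911 and 20, 8 and 10 for Gm45652. In controls Gm9911 had 63 and 47 counts and Gm45652 had 73 and 64.

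These 3 transcripts also had fewer counts relative to their host. Per 100 counts of Unc5d they had 24.6, 16.5 and 19.5 counts in Yy1 cKO and 42.1 and 45.7 counts in controls, with no overlap. Gm43826, inside Unc5c, fell by 0.80 ± 0.15 (adjusted p = 0.0051) and had 2.67, 2.47 and 2.96 counts per 100 of Unc5c in Yy1 cKO against 3.23 and 2.77 in controls, which overlap. Gm19972, inside Unc5b, did not pass (log2 fold change -0.16 ± 0.13, adjusted p = 0.45), with 26.1, 24.8 and 32.6 counts per 100 of Unc5b in Yy1 cKO and 27.1 and 25.7 in controls. Gm12305, inside Ntn1, had at most 19 counts a library. The difference between the intronic and the exon-based changes was not tested.

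**Figure D4:**
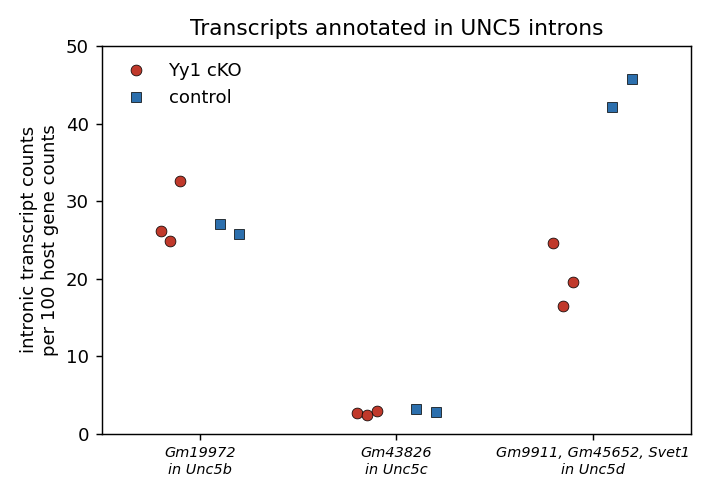
Counts of transcripts annotated in the introns of Unc5b, Unc5c and Unc5d per 100 counts of the host gene, 1 point a library, with Yy1 cKO as circles and control as squares. In Unc5d the Yy1 cKO points lie between 16.5 and 24.6 and the control points at 42.1 and 45.7, while the groups overlap in the other hosts.

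Of other netrin relatives and netrin-binding proteins, 13 of 14 in the table were tested (Ntn5 was too rare), 5 rose and 0 fell (median log2 fold change 0.24). Over all genes tested, 10.7% were called higher and 12.6% lower. Lrrc4, a postsynaptic partner of netrin-G2, had 83.8, 84.3 and 84.8 CPM in Yy1 cKO and 57.4 and 61.7 CPM in controls (log2 fold change 0.50 ± 0.061, adjusted p = 3.7e-04). Flrt1, of a family whose members bind UNC5 ectodomains, averaged 44.0 ± 3.4 CPM in Yy1 cKO and 28.3 ± 1.8 CPM in controls (log2 fold change 0.64 ± 0.090). Dscaml1, the relative of Dscam, averaged 63.4 ± 1.2 CPM in Yy1 cKO and 48.2 ± 1.4 CPM in controls (log2 fold change 0.40 ± 0.062), opposite in direction to Dscam. The other members that rose, named after their values were seen, were Ntng1, a membrane-bound netrin-G (1.27 ± 0.22), and Rgmb, a neogenin ligand (0.24 ± 0.072).

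Intracellular effectors of netrin receptors moved both ways: of 32 tested 6 rose and 8 fell (median log2 fold change -0.02), against 10.7% and 12.6% of all genes. Evl, an Ena/VASP protein of growth cone actin, averaged 66.5 ± 2.9 CPM in Yy1 cKO and 107 ± 1.2 CPM in controls (log2 fold change -0.69 ± 0.060, adjusted p = 5.1e-05). Ezr, which links membrane receptors to actin, averaged 11.9 ± 0.52 CPM in Yy1 cKO and 26.3 ± 2.2 CPM in controls (log2 fold change -1.14 ± 0.10). Wasl, an activator of actin branching, rose by 0.38 ± 0.058. Ptk2 and Fyn, kinases that bind DCC, also fell, by 0.23 ± 0.057 and 0.28 ± 0.070. The kinase Src did not pass (log2 fold change -0.04 ± 0.059, adjusted p = 0.70). Trio and Pak1 rose, by 0.29 ± 0.059 and 0.31 ± 0.068. Ptk2, Fyn, Src, Trio and Pak1 were named after their values were seen.

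**Figure D5:**
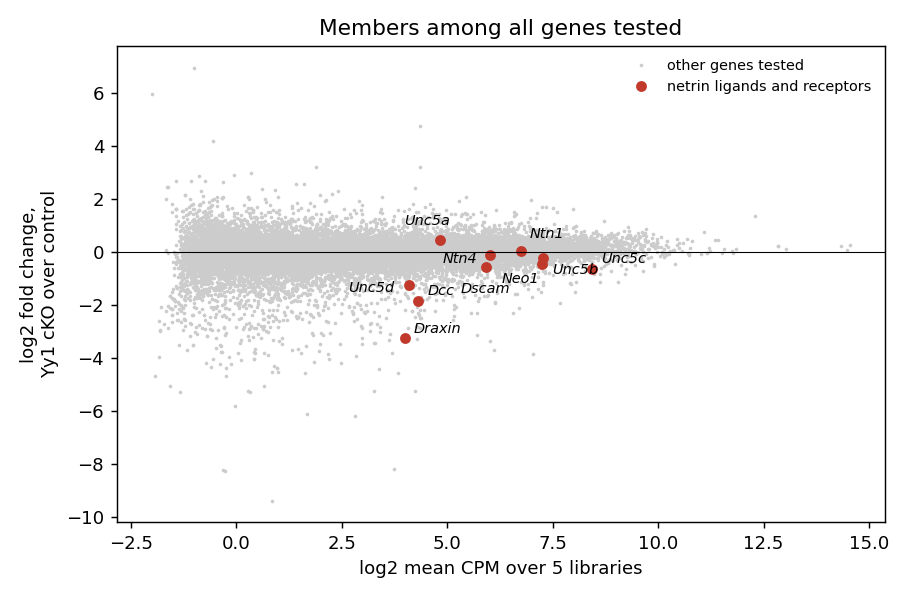
Log2 fold change, Yy1 cKO over control, against log2 mean CPM for all 20388 genes tested (grey), with the 10 netrin ligands and receptors in red. Draxin, Dcc and Unc5d are the lowest of the red points, and 0.378%, 1.69% and 3.58% of all genes tested lie lower, respectively. Unc5a, at 0.44, and Ntn1, at 0.04, lie above 0.

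Markers of several cell types moved beside these genes, and their part in the results was not tested. The counts of rises and falls below stand against 10.7% of all genes called higher and 12.6% called lower. Of 12 markers of granule cell precursors and young granule cells 11 fell and 0 rose (median log2 fold change -3.16), and their summed level was 1064 to 1157 CPM in Yy1 cKO and 2083 to 2175 CPM in controls. Dcx, of migrating neurons, averaged 20.34 ± 0.46 CPM in Yy1 cKO and 299 ± 21.3 CPM in controls, and Atoh1, the factor of the precursors, had 0, 1 and 0 counts in Yy1 cKO against 16 and 19 in controls and was named after its values were seen. Of 10 markers of oligodendrocyte precursors and new oligodendrocytes 7 fell and 0 rose (summed 464 to 481 CPM in Yy1 cKO and 587 to 605 CPM in controls), among them Gpr17 (-0.96 ± 0.093). Mural cell and fibroblast markers held 5 falls and 0 rises in 10 (243 to 288 CPM in Yy1 cKO and 371 to 451 CPM in controls). Pdgfra is in this list and in that of oligodendrocyte precursors, and its fall is counted in both.

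Endothelial markers, listed because Unc5b also acts in blood vessels, rose in 2 and fell in 4 of 10 cases (179 to 188 CPM in Yy1 cKO and 191 to 206 CPM in controls), with Cldn5 falling by 1.01 ± 0.094 and Slco1a4 rising by 0.96 ± 0.096. Mature granule neuron markers rose in 8 and fell in 1 of 10 cases (5417 to 5924 CPM in Yy1 cKO and 4187 to 4211 CPM in controls), and there were 5 rises and 0 falls in 10 markers of Golgi cells and molecular layer interneurons (610 to 689 CPM in Yy1 cKO and 437 to 438 CPM in controls). Purkinje cell markers rose in 3 and fell in 0 of 12 cases (5727 to 6587 CPM in Yy1 cKO and 4898 to 5015 CPM in controls). Mature oligodendrocyte markers rose in 4 and fell in 0 of 10, astrocyte and Bergmann glia markers rose in 4 and fell in 1 of 10, and markers of unipolar brush and nuclear neurons rose in 1 and fell in 1 of 8. Choroid plexus markers summed to 11.8 to 19.1 CPM in Yy1 cKO and 21.2 CPM in both controls, with 1 rise (Ttr) and 1 fall (Otx2) in 4 tested. No marker of these lists was at 0 in all 5 libraries.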

How the data were processed

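Bulk RNA-seq with paired reads of 150 bp was made of postnatal day 14 cerebella, in 3 Yy1 cKO and 2 control libraries. Per the labels' protocols, RNA was extracted with TRIzol, ribosomal RNA was depleted and libraries were strand-specific. The submitters' processing notes name FastQC 0.11.8, Trimmomatic 0.39, STAR 2.7.1a, featureCounts, DESeq2 1.26.0 and GRCm38. Strand and multi-mapping settings of the counting are not given here. The authors deposited raw read counts per gene and a normalized signal, which is the raw count divided by 1 size factor per library (0.969 to 1.07) and covers 24859 genes, none under 11 counts summed over libraries. The raw counts were used.

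Identifiers were matched to GENCODE M21, 54673 with version, 567 without it and 181 not at all. The test was edgeR 4.0.16 (quasi-likelihood, TMM, filterByExpr, robust, no covariate, R 4.3.3) over all genes, with Benjamini-Hochberg adjustment. The code was tested on simulated counts with known fold changes. SEs come from the F statistic. CPM are TMM-scaled, RPKM divide them by the union of exons, and values are mean ± SD. Libraries were distinct: the mean chi-square of library pairs was 3.51 to 16.7 inside a group, against 34.1 to 41.5 across. The alternatives were other scalings, filters, thresholds, DESeq2 1.42.0, limma 3.58.1 (voom, or trend on log2 of the normalized signal plus 1), a replicate block, Xist as covariate, and leaving out each library.

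Genes and lists were chosen with earlier results of these data known. Named genes were all members, Yy1 and up to 3 called genes of each list by p, of which the text gives some. Outside that rule stand Calb1, Pcp2 and Gabra6, named as defining markers, Ntn5, as too rare to test, and the genes marked in the text as named or looked at after their values were seen. For Dcc and Unc5a, the called members with the smallest p in each direction, the 3 genes with the highest Pearson r are also named.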

Additional observations from a re-analysis of the deposited data

How the results depend on the processing

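Calls and directions of Draxin, Dcc, Neo1, Dscam, Unc5c and Unc5d held in all 15 alternatives, with log2 fold changes of -3.60 to -3.09 for Draxin and -1.93 to -1.79 for Dcc. Over those alternatives Unc5a ranged from 0.36 to 0.50 and Unc5b from -0.31 to -0.20, with the lost calls given above. Ntn4 passed only when scaled by library totals alone (-0.22, adjusted p = 0.041, range 0.041 to 0.73), and Ntn1 changed sign without passing (-0.04 to 0.08). Under that scaling 9 members and 4801 of 20388 genes were called, with 3369 genes lower, against 2577 lower under TMM. Higher genes made up 29.8% of these calls, against 45.9% under TMM. At an adjusted p of 0.01 there were 2548 calls, against 4762 at 0.05. Of the 8 members called, 7 held, and Unc5b (edgeR adjusted p = 0.014) did not. Leaving out each library gave 2187 to 6117 calls, the lowest without control 1 and equally without control 2, and 6 to 8 members called. A lone control is taken to vary like the Yy1 cKO group. The replicate block called 7061 of 20388 genes and the same number of members (8). Number 3 occurs only in Yy1 cKO, so the block sets that library aside. Its log2 fold changes were near those without Yy1 cKO 3 (0.50 for Unc5a and -1.79 for Dcc in both fits). The lowest adjusted p of Unc5a and of Unc5b came from this block. Deviations of same-numbered libraries correlated at 0.04 and 0.01. With 2 numbers in both groups and no label that ties them, the libraries share only a number. The UNC5 shares do not depend on the scaling of libraries, and every difference kept its sign with the longest transcript as length and without each library. Counting error limits Draxin most.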

Other observations

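Among 12881 genes averaging 5 CPM or more, with counts in every library, those most like Dcc in log2 CPM over the 5 libraries were Panx1, a large-pore channel (Pearson r = 0.99997, log2 fold change -1.75), Tuba1a, the alpha-tubulin of growing neurons (-1.15), and Hspg2, the basement membrane proteoglycan perlecan (-0.38). Panx1 had 8.81, 9.25 and 8.001 CPM in Yy1 cKO and 29.2 CPM in each control. Over so few libraries 289 genes had an r above 0.99 with Dcc, so this is a description of the group difference. Those most like Unc5a were Dnaja3, a mitochondrial co-chaperone (0.24), Plekhf1 (0.85) and Sgms1, a sphingomyelin synthase (0.28), with 46 genes above 0.99.

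Mad2l2, a subunit of translesion DNA polymerase, starts at position 148130384, on the other strand and inside Draxin, whose own start is at 148130698. It had 133, 99 and 113 counts in Yy1 cKO and 217 and 234 in controls, with a log2 fold change of -1.02 ± 0.14 (adjusted p = 6.2e-04). It was looked at after its value was seen, because its gene overlaps that of Draxin with no shared exon base. Mad2l2 runs on to position 148145699, so the bases printed above for the Draxin promoter lie within that gene.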
